A study of Xenopus tropicalis with 12 samples.

Results

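Thyroid hormone acts on the tadpole intestine through nuclear receptors, and the comparison described here asks how far its effect on each gene depends on thyroid hormone receptor alpha (TRα), by setting wild-type animals beside knockouts. It is the interaction of genotype with T3, the active form of the hormone. It was computed as the log2 fold change with T3 in tadpoles lacking TRα minus the log2 fold change with T3 in wild type, from all 12 of the 12 libraries of the series. RNA was sequenced from intestine of the frog Xenopus tropicalis, with wild-type and TRα(-/-) tadpoles born to the same parents. Tadpoles at stages 52 to 54 were left untreated or given 10 nM T3 for 18 h. The 4 groups hold 3 libraries each and are named in the count table contWT (wild type, untreated), contHomo (TRα(-/-), untreated), T3WT (wild type with T3) and T3Homo (TRα(-/-) with T3). Each group is 1 pool of RNA merged from several tadpoles and sequenced as 3 technical replicates, so p-values reflect only the technical spread within pools, and the spread between animals is unknown. The labels give the genotype only as TRα(-/-), without the allele.

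The sample titles contradict these column names for 6 libraries: they give contHomo as wild type with T3, and T3WT as TRα(-/-) without it. All labels agree on contWT and T3Homo. The interaction keeps the same value when contHomo and T3WT trade places, because both enter it with a minus sign. Whether a gene gains, loses or inverts its response does depend on the names, so each class is given by column name and then by title.

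As background, TRα is the receptor that prevails in premetamorphic tadpole tissues. Without hormone, thyroid hormone receptors bound to DNA recruit corepressors and hold target genes down. With T3 they exchange these for coactivators, and the same genes are switched on. In the intestine this drives remodelling, in which the larval epithelium dies and an adult epithelium forms from newly arising stem cells. A second receptor, TRβ, is itself induced by T3. Loss of TRα can therefore remove both a repressor and an activator.

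The files and the reference gene table pair no nuclear identifier with a gene name, so nuclear genes are given by identifier and scaffold position, in the coordinates of the count table, and carry no function here. The TRα gene itself, the markers of intestine and of other cells, and the lists of hormone-response genes could not be looked up by name and were not analysed here. Library totals ranged from 34322099 to 44755390 counts. T3WT stood apart from the other groups in overall make-up: a mean of 15282 genes had a count in it, against 14846 in contHomo and 14805 in each of contWT and T3Homo. Its mean TMM scaling factor was 1.21, and those of the others 0.921 to 0.962. No interaction can be formed without T3WT, so no value below is free of these libraries. The part of this make-up in the results was not tested.

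Most large interactions were negative, meaning that the level in T3Homo fell short of what the responses of the other groups would give if they combined as multiplied folds. A gene was called when the edgeR quasi-likelihood test gave an adjusted p below 0.05 and the interaction was at least 2-fold, that is 1 on the log2 scale. Of 13172 genes tested, 15.6% were called, 12.4% negative and 3.24% positive (1632 and 427 genes). The median interaction was -1.63 among the negative calls and 1.28 among the positive ones. At 4-fold or more there were 536 negative and 73 positive calls, at 8-fold 183 and 33, and at 16-fold 89 and 17.

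The excess of negative calls depended on the size required and on the scaling. With no fold threshold 64.3% of genes passed, and 47.0% of those were negative. Negative calls made up 79.3% of the calls with TMM scaling and 93.3% with total-count scaling, which moved the median interaction of all genes from 0.01 to -0.34. The direction of a small interaction is therefore tied to the scaling, and changes are reported relative to the TMM-scaled median.

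Read by column name, the commonest outcome was a response to T3 seen in wild type and not called in TRα(-/-). This class, termed lost, held 1150 genes or 55.9% of the interaction calls, of which 909 were rises and 241 falls. A further 240 genes (11.7%) gained a response, being called in T3Homo against contHomo and not in T3WT against contWT. Here the balance was the other way round, with 201 falls and 39 rises. The response was inverted in 107 genes (5.20%), of which 93 rose in wild type and fell without TRα and 14 did the reverse. Another 97 responded in the same direction but less and 7 more, and 458 passed for the interaction with neither response called. In whole intestine, fewer cells of a type and less RNA per cell cannot be told apart. For scale, 18% of all genes tested were called in T3WT against contWT, 12.8% higher and 5.14% lower. In T3Homo against contHomo 6.6% were called, 2.77% higher and 3.83% lower.

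**Figure D1:**
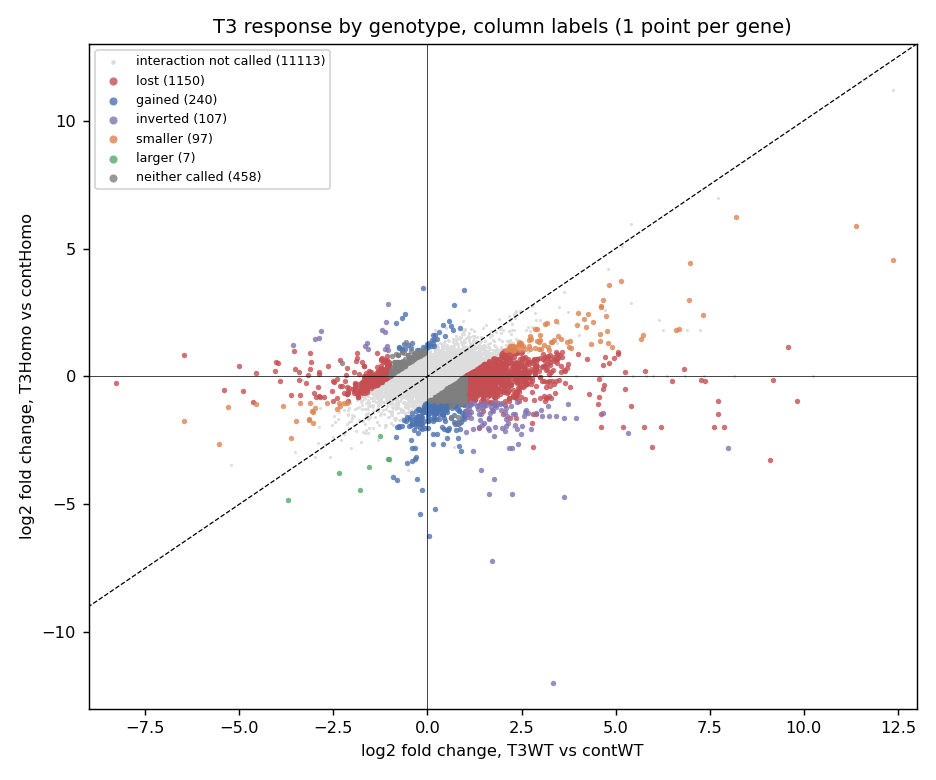
Each point is 1 of 13172 genes, placed by its log2 fold change in T3WT against contWT (x axis) and in T3Homo against contHomo (y axis), coloured by class, with the dashed line marking equal responses. The 909 lost rises spread to the right along the x axis, the 201 gained falls lie below the centre, and the 93 rises turned into falls lie at lower right; the fitted values of genes with a group near 0 counts depend on the prior count.

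A lost response was not always an absent one. Of the 1150 genes, 836 (72.7%) had a change under 0.5 on the log2 scale in T3Homo against contHomo. In 224 the change had the wild-type direction at adjusted p below 0.05 but stayed under 2-fold, and in 189 it had the opposite direction under 2-fold. In 737 it did not pass, and 26 of these had a fitted change of at least 2-fold. Of the 240 gained responses, 161 (67.1%) had a change under 0.5 in wild type.

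The genes named below are described by column name, and their classes by title follow later. The lost rises with the largest interaction were genes counted almost solely in T3WT. ENSXETG00000016293, with 13 exons on the minus strand of scaffold GL172647.1 from 1318326 to 1327669, had 7.10, 6.73 and 7.28 CPM (counts relative to the TMM-scaled library total) in T3WT. It had 0.0281, 0 and 0 CPM in contWT, 0.0275, 0 and 0.0528 in contHomo, and 0 in all T3Homo libraries. The T3WT libraries lay far above the rest, which together held 4 counts. The ratio of T3WT to contWT was 727, with a 95% counting interval of 130 to 28700, and no fold can be given between T3Homo and contHomo, both at or under 3 counts. The interaction passed with an edgeR adjusted p of 2.23e-07, but the gene entered the test through T3WT alone.

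ENSXETG00000026902, with 7 exons on the minus strand of GL172782.1 from 1269952 to 1276187, repeated the pattern. It stood at 11.9, 11.6 and 11.4 CPM in T3WT, and at 0.0281, 0 and 0 CPM in contWT. It had 0, 0.0614 and 0 CPM in contHomo and 0, 0.0242 and 0 in T3Homo. T3WT was again the high group, 1200-fold above contWT (95% counting interval 215 to 47500). The interaction had an edgeR adjusted p of 2.68e-05. The call rested on stray counts in the other groups: without contHomo replicate 2, which held its contHomo counts, the gene was no longer called, at a fitted interaction of -7.98 against -10.77. Of the genes tested, 9 reached 1 CPM in T3WT with at most 3 counts in each other group, ENSXETG00000016293 and ENSXETG00000026902 among them. All 9 passed the filter on low counts through T3WT alone, so a difference among their groups was in part set by that filter. No gene had that pattern for contWT, contHomo or T3Homo.

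The lost falls with the largest interaction were the mirror image, genes present in 3 groups and nearly gone from T3WT. ENSXETG00000023975, with 19 exons on the plus strand of GL173503.1 from 197718 to 217886, had 11.7, 12 and 10.7 CPM in contWT and 0.408, 0.236 and 0.419 in T3WT. In contHomo it had 9.72, 11.8 and 11.2 CPM, and in T3Homo 13.4, 15.3 and 14.6. The T3WT libraries lay below all others, and those of T3Homo above all others. It fell 32.8-fold from contWT to T3WT and rose 1.33-fold from contHomo to T3Homo, an interaction of 5.43 ± 0.15 (SE, edgeR adjusted p = 2.55e-53). ENSXETG00000017935 on GL172850.1 was 42.7-fold lower in T3WT than in contWT and 1.46-fold lower in T3Homo than in contHomo, with contHomo the highest group at 25.1, 25.3 and 27.0 CPM.

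Gained rises were the smaller part of the gained class, and the named ones started from different levels. ENSXETG00000013957, with 6 exons on the minus strand of GL178349.1 from 30 to 4446, had 113, 109 and 112 CPM in T3Homo and 21.4, 20.4 and 20.0 in contHomo. It had 71.8, 73.6 and 74.6 CPM in contWT and 49.0, 47.6 and 49.8 in T3WT. No 2 groups overlapped. By column name the rise without TRα was 5.41-fold, from a contHomo level that was itself 3.56-fold below contWT. In wild type, by the same names, the gene was 1.5-fold lower with T3. The interaction was 3.02 ± 0.04 (SE, edgeR adjusted p = 7.37e-78). ENSXETG00000002542, with 16 exons on the plus strand of GL172879.1 from 535203 to 553549, had 9.57, 9.16 and 9.02 CPM in T3Homo. In contHomo it had 1.98, 1.81 and 1.88, in contWT 1.18, 0.543 and 0.701 and in T3WT 0.504, 0.623 and 0.397. T3Homo was far above the rest, and the contWT and T3WT libraries overlapped. The gene rose 4.90-fold without TRα by column name, with an interaction of 2.96 ± 0.27 (SE, edgeR adjusted p = 4.51e-17).

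The gained falls with the largest interaction had different low and high groups. ENSXETG00000013747, with 9 exons on the plus strand of GL173088.1 from 805924 to 815825, was high in contHomo, at 18.6, 20.1 and 19.5 CPM, and low elsewhere. It had 1.57, 1.23 and 1.31 CPM in contWT, 1.27, 1.31 and 1.04 in T3WT and 0.487, 0.556 and 0.336 in T3Homo. The contHomo libraries alone were high, and those of contWT and T3WT overlapped. The fall from contHomo to T3Homo was 41.9-fold and the interaction -5.19 ± 0.24 (SE, edgeR adjusted p = 1.12e-36). In ENSXETG00000004725, with 4 exons on the minus strand of GL172720.1 from 941903 to 946691, T3Homo was instead the low group, at 1.58, 1.5 and 1.47 CPM. The other groups lay at 11.6, 11.5 and 11.6 CPM (contHomo), 10.2, 11.4 and 10.7 (T3WT) and 6.04, 5.82 and 5.40 (contWT). Here the contHomo and T3WT libraries lay close together, above those of contWT. The fall without TRα by column name was 7.61-fold and the interaction -3.83 ± 0.12 (SE, edgeR adjusted p = 3.68e-50).

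The largest interaction among these was an inversion. ENSXETG00000005714, with 4 exons on the plus strand of GL173212.1 from 277880 to 281520, had 443, 444 and 433 CPM in contHomo. It had 6.40, 6.58 and 6.29 CPM in T3WT, 0.618, 0.514 and 0.762 in contWT and 0.0927, 0.145 and 0.0775 in T3Homo. No groups overlapped, and the gene was 700-fold higher in contHomo than in contWT. By column name it rose 10.2-fold with T3 in wild type and fell 4170-fold with T3 without TRα, an interaction of -15.33 ± 0.17 (SE, edgeR adjusted p = 9.13e-88). ENSXETG00000017955, with 8 exons on the plus strand of GL173118.1 from 50743 to 57766, was likewise a gene of contHomo, at 5.33, 5.71 and 5.10 CPM. The other groups held only 4 counts (contWT), 18 (T3WT) and 4 (T3Homo), so its rise in wild type, 3.48-fold at an edgeR adjusted p of 0.0223, rests on few reads. The gene passed the filter on low counts through contHomo alone, so a difference among its groups was in part set by that filter. All of its T3Homo counts lay in replicate 2, without which the fitted interaction went from -8.95 to -12.42.

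Among inverted responses, falls turned into rises were the rarer form. ENSXETG00000012424, with 2 exons on the minus strand of GL182260.1 from 6835 to 9216, had 27.2, 27.6 and 26.4 CPM in contWT and 27.9, 26.3 and 27.3 in T3Homo. In contHomo it had 12, 11.7 and 12.2 CPM, and in T3WT 8.54, 8.34 and 8.83. The libraries of contWT and T3Homo overlapped, and all lay above those of contHomo and T3WT. By column name it fell 3.16-fold in wild type and rose 2.27-fold without TRα, with an interaction of 2.84 ± 0.07 (SE, edgeR adjusted p = 8.69e-59). In ENSXETG00000022960, with 6 exons on the plus strand of GL174005.1 from 18117 to 23311, the T3Homo libraries were highest, at 67.2, 68.2 and 68.4 CPM. Those of T3WT were lowest, at 17.7, 18.4 and 18.8, with contWT at 40.7, 40.4 and 38.9 and contHomo at 33.6, 29.9 and 33.0. The fall was 2.19-fold and the rise 2.11-fold, with an interaction of 2.20 ± 0.05 (SE, edgeR adjusted p = 3.75e-60).

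**Figure D2:**
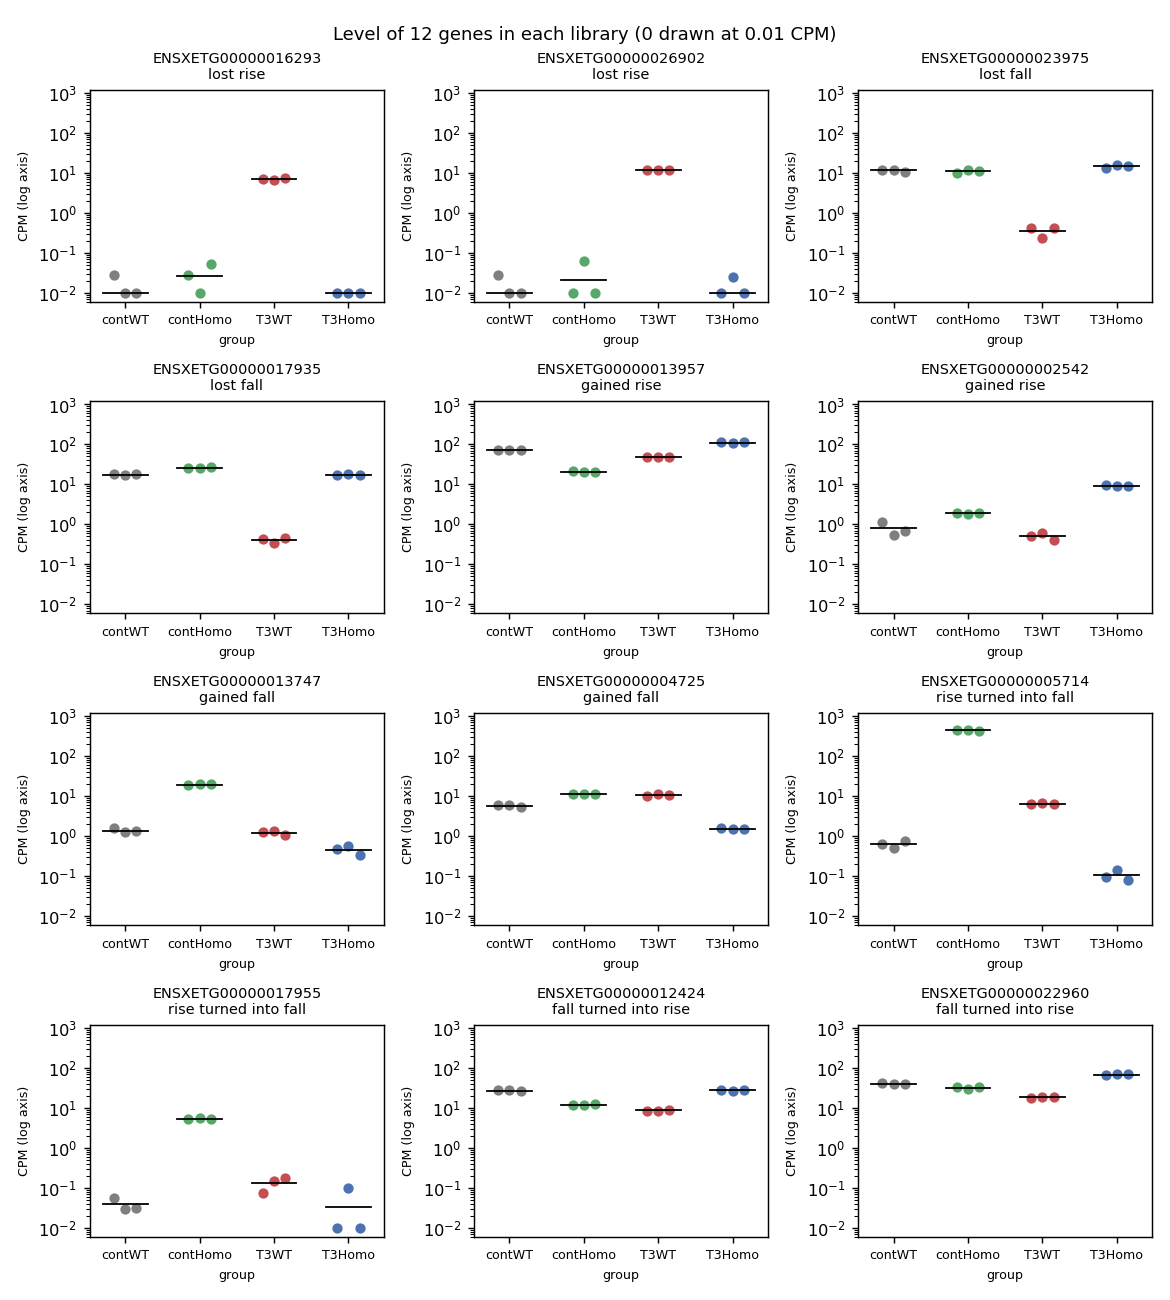
Level in CPM on a log axis of the 12 genes named above, with 1 dot per library, a bar at the group mean, and values of 0 and means below 0.01 drawn at 0.01. The T3WT libraries set apart the 4 genes of the lost class, contHomo reaches 443, 444 and 433 CPM in ENSXETG00000005714, and contWT and T3Homo lie together above the other groups in ENSXETG00000012424.

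Read by sample title, lost and gained changed places. The wild-type response is then contHomo against contWT, in which 5.97% of genes were called, 3.11% higher and 2.87% lower. The response without TRα is T3Homo against T3WT, in which 16.1% were called, 2.76% higher and 13.4% lower. The lost class shrank to 288 genes, 220 rises and 68 falls, and the gained class grew to 1138, 968 falls and 170 rises. The inverted class had 106 genes, 94 rises turned into falls and 12 falls turned into rises. Smaller and larger responses in the same direction numbered 18 and 54, and neither response was called for 455 genes. Of the named genes, those lost by column name were gained by title, as was ENSXETG00000022960. ENSXETG00000013957, ENSXETG00000013747 and ENSXETG00000004725 were inverted by title, and ENSXETG00000002542 had a larger response. ENSXETG00000005714, ENSXETG00000017955 and ENSXETG00000012424 stayed inverted.

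**Figure D3:**
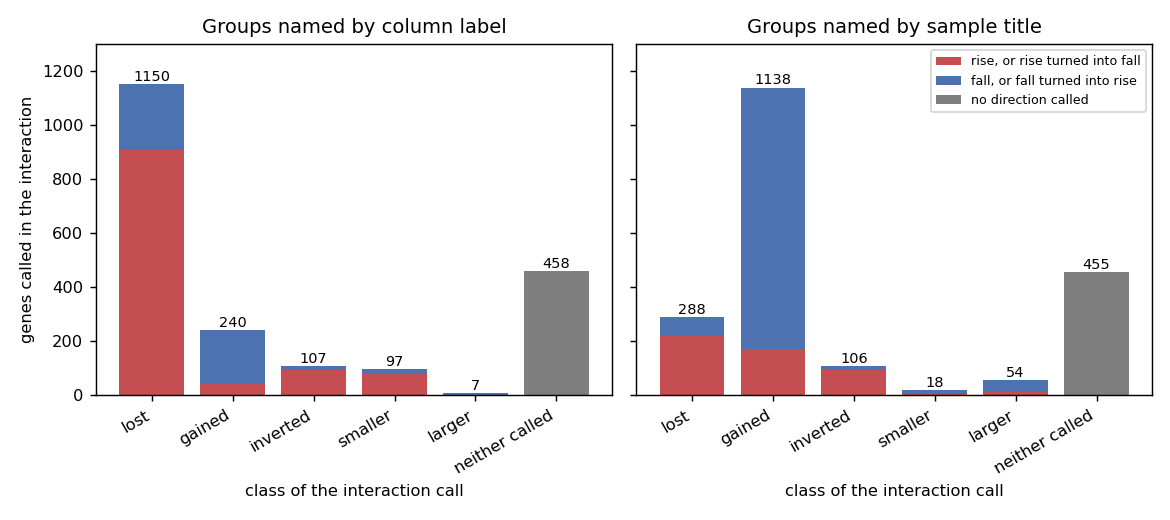
Number of interaction calls in each class with groups named by column label (left) and by sample title (right), with colours giving the direction of the response. The lost class goes from 1150 to 288 genes and the gained class from 240 to 1138, while the inverted class has 107 and 106.

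The same class was reached under both sets of names by 553 genes, 26.9% of the interaction calls. The largest exchange was of 654 genes that were lost by column name and gained by title, 56.9% of the former class and 57.5% of the latter. A response was lost under both by 196 genes, 17.0% of the lost class by column name and 68.1% of that by title. These comprised 164 rises and 32 falls. To be lost under both, contHomo and T3WT must each be called against contWT, so contWT is the one group that can stand apart. It was at least 2-fold below each of the others, which lay within 2-fold of one another, in 109 of the 196 and above them in 25, and no group stood apart in 62. Of the 12 genes named above, none was lost under both.

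Gained responses common to both sets of names numbered 137, or 57.1% of the gained class by column name and 12% of that by title. Of these 125 were falls and 12 rises. The definition makes T3Homo the one group that can stand apart here, and it was the low group in 79 and the high group in 11, with no group apart in 47. Among the 125 falls the median level was 0.651 CPM in T3Homo, against 1.41 in contWT, 1.63 in contHomo and 1.87 in T3WT. The 12 rises had a median of 13.8 CPM in T3Homo and between 5.96 and 6.22 CPM in the others.

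Inverted responses held under both sets of names for 40 genes, about equal shares of each list (37.4% and 37.7%), with 35 rises turned into falls and 5 falls turned into rises. In such a gene T3 and the loss of TRα each move the level one way, and the second change reverses the first, in whichever order they are taken. ENSXETG00000005714, ENSXETG00000012424 and ENSXETG00000017955 were among them, the last of which passed the filter through contHomo alone. Among all genes tested, 30 had contHomo and T3WT both at least 2-fold above contWT and T3Homo, and 5 had both at least 2-fold below. Such a pattern gives an interaction of at least 4-fold by arithmetic. The median levels of the 35 rises turned into falls were low, 0.750 CPM in contHomo and 0.934 in T3WT against 0.185 in contWT and 0.168 in T3Homo. The last 2 medians lie under the filter level of 0.26 CPM. Of the 107 genes inverted by column name, 44 reached that level in all libraries of every group and 33 in those of only 1 group. For the latter a difference among the groups was in part set by the filter, and their number among the 40 was not counted.

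A description that needs no names of treatment is which group stood at least 2-fold from each of the others while those lay within 2-fold of one another. Such a group was found for 776 of the interaction calls (37.7%). It was T3WT in 524 (67.5% of them), higher in 442 and lower in 82, and the 524 became 972 with total-count scaling, 191 at an absolute log2 value of at least 2 and 283 with glmTreat. It was contWT in 137, lower in 111 and higher in 26. T3Homo was lower in 80 and higher in 11, and contHomo was higher in 16 and lower in 8. Of all interaction calls, 283 reached the filter level of 0.26 CPM in all libraries of T3WT only. For such genes a high T3WT was in part set by the filter on low counts. ENSXETG00000016293 and ENSXETG00000026902 are of this kind and among the 442, and how many others are was not counted. T3WT was apart in 5.09% of all genes tested, 671 in number. Among genes not called in the interaction it was also the commonest group apart, higher in 117 and lower in 30. No other group was apart there in more than 18 genes in either direction. The prominence of T3WT was thus not particular to the interaction calls. By column name T3WT is the wild-type response and by title the untreated TRα(-/-) intestine, and these cannot be told apart here.

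**Figure D4:**
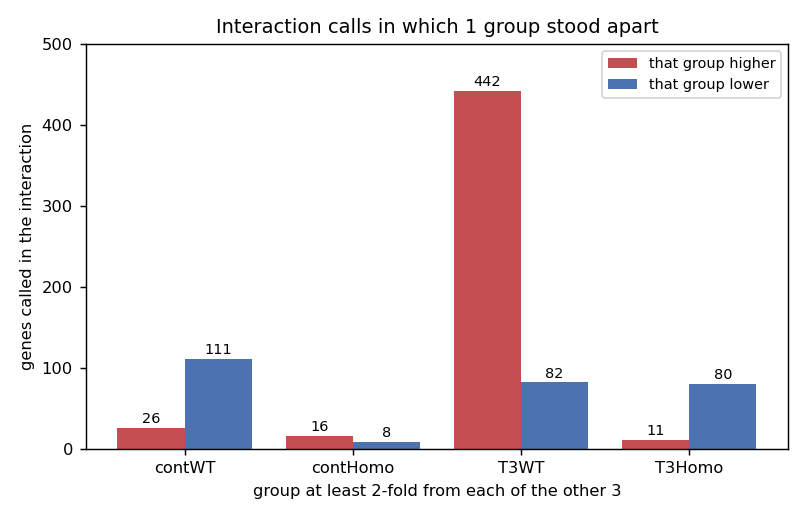
Number of interaction calls in which 1 group was at least 2-fold above (red) or below (blue) each of the other 3 groups, which lay within 2-fold of one another, with the group on the x axis. T3WT is that group in 442 and 82 genes, contWT in 26 and 111, T3Homo in 11 and 80, and contHomo in 16 and 8. The 442 include genes that passed the filter on low counts through T3WT alone.

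Negative and positive interactions differed in the level of their genes. Per kilobase of exon, the median level in the highest group was 1.36 CPM for negative calls, 6.98 for positive calls and 5.59 for all genes tested. Of 2037 genes with a mean under 1 CPM, 34.7% were called negative and 4.32% positive. Between 1 and 10 CPM the shares were 14.1% and 3.18% of 5128 genes, and between 10 and 100 CPM 3.57% and 2.24% of 4960. At 100 CPM or more, 2.67% of 1047 genes were negative and 6.21% positive, so that positive calls were the more frequent with TMM and RLE scaling; with total-count scaling they were not, at 4.58% negative and 1.81% positive. The median interaction of all genes tested, called or not, moved with level in the same way. It was -0.76 under 1 CPM, -0.1 between 1 and 10, 0.14 between 10 and 100 and 0.27 at 100 CPM or more. With total-count scaling it went from -1.11 under 1 CPM to -0.08 at 100 CPM or more. The part of this shift in the calls was not tested. A low gene could enter the test through 1 group alone, and T3WT was that group for 569 of 668 such genes. T3WT enters the interaction with a minus sign. The negative shares and medians at low levels were thus in part set by the filter on low counts, by an amount not tested. Exon structure differed less between negative and positive calls. The median number of exons was 9 for negative calls, 8 for positive calls and 9 for all genes. The median exon length was 1855, 1500 and 1781 bases, and genes of a single exon made up 3.86%, 8.67% and 3.53%.

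**Figure D5:**
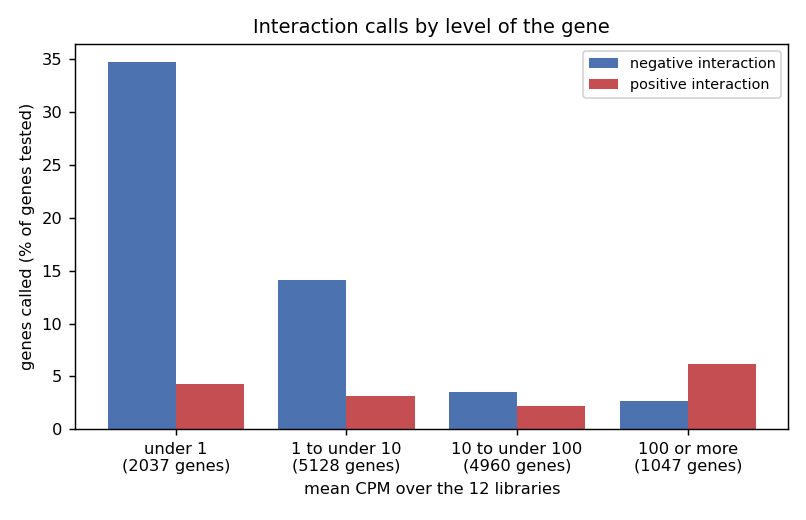
Share of genes tested that had a negative (blue) or positive (red) interaction call, by mean level over the 12 libraries. Negative calls fall from 34.7% of genes under 1 CPM to 2.67% at 100 CPM or more, where 6.21% are positive with TMM scaling. Some low genes entered the test through T3WT alone, so the negative share at low levels was in part set by the filter.

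Some low genes entered the test only through the group in which they were high, so a difference among their groups was in part set by the filter. The filter asked for 0.26 CPM in a number of libraries equal to the smallest group. It was reached in all libraries of only 1 group by 668 genes, of which 330 were called, and for 569 and 283 of these that group was T3WT. Among the 11648 genes at this level in every library, 11.4% were called, 987 negative and 345 positive. Negative calls were 74.1% of these. By column name the calls of both signs among these genes comprised 723 lost, 148 gained, 46 smaller, 44 inverted and 2 larger responses. The other 369 had neither response called.

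Interaction calls of equal sign occurred side by side on the scaffolds in 7 runs of 4 tested genes. The runs held 28 of the 2059 calls, where 12.4% of all genes tested were called negative and 3.24% positive. How many such runs calls placed at random would give was not computed, so the runs are only listed here. In 2 of the runs all 4 genes had the same class by column name. On GL173371.1 from 246262 to 294833 all 4 were inverted, with interactions from -4.74 to -2.49. Of these, ENSXETG00000027636 and ENSXETG00000033339 held 6 counts each in T3Homo and reached the filter level in all libraries of T3WT only. A difference among their groups, including the interaction of -4.74 in ENSXETG00000033339, was thus in part set by the filter. Summed over the 4 genes, T3WT reached 38.0 ± 0.744 CPM and T3Homo 6.05 ± 0.434, with contWT at 17.7 ± 0.523 and contHomo at 17.1 ± 0.310 (SD, n = 3). T3WT was highest and T3Homo lowest, with the untreated groups level by column name. By title 3 of the 4 genes were gained falls and 1 was inverted. An exon of 75 bases recurred in all 4, so reads may be shared if the genes are copies. Sequences were not compared, so this was not tested. ENSXETG00000023912 and ENSXETG00000027636 also overlap in position on opposite strands.

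In the run on GL174116.1 from 4232 to 46548 all 4 genes were lost by column name and gained by title. It was counted in T3WT, at 23.8 ± 0.780 CPM, with T3Homo, contHomo and contWT at 0.0403 ± 0.0698, 0.0462 ± 0.0134 and 0.0881 ± 0.0521. Exons of equal length recurred in all 4 of its genes, so here too reads may be shared if the genes are copies, which was not tested. Each of these genes held at most 4 counts in any group but T3WT. They thus passed the filter on low counts through T3WT alone, and a difference among their groups was in part set by that filter.

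The other 5 runs were mixed in class. On GL172733.1 from 1177701 to 1429744 the sum was 159 ± 2.29 CPM in T3WT, and T3Homo, contHomo and contWT stood at 49.6 ± 0.402, 46.9 ± 1.32 and 35.6 ± 0.785, and 3 of the 4 genes were lost. On GL172907.1, from 528924 to 917128, it was 56.2 ± 1.16 CPM in T3WT and 21.7 ± 0.616 in T3Homo, with 27.7 ± 0.118 in contWT and 32.3 ± 0.214 in contHomo. In both of these runs the sum was highest in T3WT. On GL172733.1 ENSXETG00000013699 supplied 90.8 CPM of the T3WT sum, and ENSXETG00000003366 was highest in contHomo, at 7.68 CPM against 6.22 in T3WT. On GL173055.1, from 453548 to 571737, the sum was 50.4 ± 1.03 CPM in T3WT and between 19.4 and 19.8 in the other groups. Most of it came from ENSXETG00000014016, at 40.8 CPM in T3WT. ENSXETG00000004623 was also highest in T3WT, at 8.86 CPM, with 2.78 in contWT and 0.24 in contHomo. The other genes were not: T3WT and contHomo had 0.533 and 0.542 CPM of ENSXETG00000004621, and 0.177 and 0.44 of ENSXETG00000024952. The latter gene reached the filter level in all libraries of contHomo only, its highest group. A difference among its groups, and with it this run of 4 genes, was thus in part set by the filter. The run on GL172798.1, from 502800 to 1642633, was low throughout, from 0.942 ± 0.217 CPM in T3Homo to 3.50 ± 0.243 in T3WT. Its member ENSXETG00000018020 held 37 counts in T3WT, 10 in contWT, 8 in contHomo and 5 in T3Homo. It reached the filter level in all libraries of T3WT only. A difference among its groups, and with it this run of 4 genes, was thus in part set by the filter. The positive run, on GL172644.1 from 4099641 to 4193320, was the reverse in its sum, with 338 ± 2.47 CPM in T3WT. The sum was 539 ± 5.38 in contHomo, 615 ± 3.74 in contWT and 664 ± 6.49 in T3Homo. ENSXETG00000017355 supplied 480 CPM of the T3Homo sum. ENSXETG00000017349 and ENSXETG00000017344 were highest in contWT, at 250 and 5.22 CPM. ENSXETG00000025936 was lowest in contHomo, at 0.281 CPM against 0.343 in T3WT, and its interaction of 1.03 barely passed (edgeR adjusted p = 0.046). The list depends on the settings: there was 1 run with glmTreat, 14 runs with total-count scaling and 214 with no fold threshold.

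The 13 protein-coding genes of mitochondrial DNA could be named, because their start and end equal those of the reference mitochondrial sequence. They encode subunits of complex I (the ND genes), of complex III (CYTB), of cytochrome c oxidase (the COX genes) and of ATP synthase (the ATP genes). None reached the 2-fold limit, and all 13 had a negative interaction at an edgeR adjusted p below 0.05, where 30.3% of all genes tested did. The 13 lie on the same sequence and were measured in the same pools, so they are not 13 independent results. The interactions ran from -0.58 to -0.11, with a median of -0.42, which total-count scaling moved to -0.77, with COX2 at -0.93 and ND2 at -0.45. The strongest was in COX2, with T3WT at 6710 CPM and T3Homo at 4580, and the weakest in ND2, with T3WT at 325 CPM and T3Homo at 248. ND2 was the member that DESeq2 left uncalled. T3WT had the highest mean for 11 of the 13 genes, and T3Homo the lowest for all 13.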

How the data were processed

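RNA from the pooled intestine of each of 4 groups was sequenced as 3 technical libraries. The deposited values are whole-number read counts per gene, not normalized, per the file headers; per the submitters' processing notes, the authors used featureCounts 1.4.6-p3 on STAR 2.5.3a alignments, with build, annotation, strand setting and the treatment of multiply aligned reads not given in the sources used here; overlapping genes and near-identical copies therefore cannot be separated. All 12 value columns, of 19921 genes, were used. Columns were matched to libraries by the names in the sample descriptions, and the titles supplied the second set of group names.

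Genes were filtered with filterByExpr (13172 left), scaled with TMM factors and fitted together, with a coefficient for every group, in edgeR 4.0.16 (R 4.3.3; quasi-likelihood test, p adjusted by Benjamini-Hochberg over all genes tested). The contrast was (T3Homo - contHomo) - (T3WT - contWT). Because technical libraries vary little (common dispersion 0.000172), a call needed both a size of at least 1 on the log2 scale and an adjusted p below 0.05. Depth was 34322099 to 44755390 counts per library, at which 3 counts summed over a group equal 0.0225 to 0.0290 CPM. Counting intervals are exact binomial ones and cover counting error only. Library pairs within a group differed by more than sampling noise (chi-square of 1.22 to 1.72 per gene, largest p = 8.76e-73), so libraries were counted separately.

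Counts were simulated for this contrast with T3Homo changed in 200 genes of at least 1 CPM, and 12893 genes were tested. Of genes changed 3-fold, 4-fold or 8-fold, 100% were called, all as gained. At 1.5-fold 0% were called, which follows from the 2-fold limit itself. False calls numbered 0, but unchanged genes were drawn at the same level in all groups, with 1 dispersion for all genes. Few false calls at the 2-fold limit could arise in that setting. It leaves out the different make-up of T3WT and any spread particular to a gene, so the 0 does not bear on these. The simulation covers only gained responses at this level. It does not bear on lost or inverted responses, on genes under 1 CPM or on the spread between tadpoles. Nuclear genes were named by rule: the 2 largest interactions per class and direction by column name, at 5 CPM or more in the highest group and with no overlap between the libraries of a called response. The reference table (assembly UCB_Xtro_10.0) held 0 of the identifiers, so the planned marker and pathway lists could not be used. The members, classes and lists were chosen with earlier results of these data known. The group apart, which used group means of log2 CPM with a prior count of 2, the runs, the levels and the joint counts of both sets of names were added after the data were seen. Alternatives covered scaling, filter, tool, fold limit, the 100 most abundant genes, a replicate block and each library left out.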

Additional observations from a re-analysis of the deposited data

Results flagged for a closer look

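The T3 responses of the groups differed by a test of the difference itself for 2059 genes, of which 1150 were lost, 240 gained and 107 inverted by column name. The 12 named genes are among them. Their interactions on the log2 scale were -12.38 for ENSXETG00000016293, -10.77 for ENSXETG00000026902, 5.43 for ENSXETG00000023975 and 4.86 for ENSXETG00000017935, which were lost. They were 3.02 for ENSXETG00000013957, 2.96 for ENSXETG00000002542, -5.19 for ENSXETG00000013747 and -3.83 for ENSXETG00000004725, which were gained. They were -15.33 for ENSXETG00000005714, -8.95 for ENSXETG00000017955, 2.84 for ENSXETG00000012424 and 2.20 for ENSXETG00000022960, which were inverted. The fitted values of ENSXETG00000016293 and ENSXETG00000026902 depend on the prior count, since 3 groups held at most 3 counts each, and that of ENSXETG00000017955 went to -12.42 without T3Homo replicate 2, which held all of its T3Homo counts. All 13 mitochondrial protein-coding genes had a negative interaction at adjusted p below 0.05 with edgeR, below 2-fold in size. Single libraries were checked by leaving each out in turn.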

How the results depend on the processing

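Over 10 alternatives and 12 libraries left out in turn, 263 of 264 interaction values of the named nuclear genes kept their direction and call. The exception was ENSXETG00000026902 without contHomo replicate 2. These genes were chosen for the largest interactions, so this count does not bear on the other calls. Of all 2059 calls, 99.7% were kept with RLE scaling, 93.3% with DESeq2 and 88% with total-count scaling. The share was 75.1% with the filter of 1 CPM, 49.3% with glmTreat and 29.6% at an absolute log2 value of at least 2. Naming groups by title gave 288 lost, 1138 gained, 18 smaller and 54 larger responses. With total-count scaling 180 calls were positive and 2516 negative, and 1774 responses were lost. With no fold threshold 8471 genes were called, 4486 positive and 3985 negative, with 2584 lost, 998 gained, 1783 inverted, 2344 smaller, 682 larger and 80 with neither response called. At an absolute log2 value of at least 2 the numbers were 609, 73, 536, 355, 51, 12, 8, 0 and 183 in the same order, and with glmTreat, which tests against a log2 value of 1, they were 1016, 221, 795, 619, 108, 23, 25, 1 and 240. These follow from the limits themselves. RLE scaling gave 2056 calls, of which 2052 were shared with the TMM calls, DESeq2 1942, no low-count filter 2175, a filter of 1 CPM in 3 libraries 1584 and omission of the 100 most abundant genes 2035. Leaving out 1 library gave 2021 to 2093 calls, with 426 to 452 positive and 1580 to 1654 negative, 1134 to 1188 lost, 239 to 267 gained, 105 to 114 inverted, 81 to 98 smaller, 5 to 8 larger and 432 to 468 with neither called.

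The same replicate number did not pair libraries: their deviations from the group means correlated at -0.07 to 0.11 over 18 pairs. With the number as a replicate block 2048 genes were called. Inverted responses common to both sets of names fell from 40 to 24 with the filter of 1 CPM, which lowered the genes tested from 13172 to 11733. The 40 were mostly low genes: even their highest group median, that of T3WT, was 0.853 CPM, under the limit of this filter. How much of the drop came from their removal was not tested. Of the mitochondrial genes, ND2 did not pass with DESeq2, and with glmTreat none of the 13 did. Each group is 1 pool, so neither these alternatives nor depth bear on variation between tadpoles.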
